A study of Mus musculus with 9 samples.

Results

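The genes described here write, keep and remove methyl groups on cytosine in DNA. They were measured in thymic iNKT cells (invariant natural killer T cells, T cells with a near-uniform receptor that recognises lipids) with and without Utx. Utx, also called Kdm6a, removes methyl groups from a histone lysine and is encoded on the X chromosome. The set holds 9 genes, Dnmt1, Uhrf1, Hells, Uhrf2, Dnmt3a, Dnmt3b, Tet1, Tet2 and Tet3, out of 18193 genes named on the array. Its members are all 24 probe sets annotated to 1 of these genes alone, out of 34945 one-gene probe sets and 45101 probe sets in all. A probe set is the group of short probes on the array that together report 1 transcript or part of it, and its values are log2 levels.

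DNA methylation is copied at each cell division by Dnmt1, which Uhrf1 brings to newly replicated DNA, where only the old strand carries the mark. Dnmt3a and Dnmt3b place methyl groups on DNA that has none, and Hells is a chromatin remodeller that lets the methyltransferases reach packed DNA. The TET enzymes oxidise methylcytosine, which starts its removal, and mice whose T cells lack both Tet2 and Tet3 are known for a large expansion of iNKT cells.

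The study compared iNKT cells labelled Utx knockout (4 arrays, KO1 to KO4) with those labelled Utx wildtype (5 arrays, WT1 to WT5), all from the thymus of mice 8 to 12 weeks old. The titles call the arrays of a group biological replicates and place KO1 and WT1 in batch 1, KO2, KO3, KO4 and WT2 in batch 2, and WT3, WT4 and WT5 in batch 3. They do not say whether each came from a separate animal, so p-values measure the spread between these samples. Cells were sorted into a lysis reagent and their RNA was amplified before labelling. The way Utx was deleted, the driver of any Cre, the exon removed, the gate of the sort and whether animals were pooled are not given in the sources used here. In the fit reported here, with batch as a fixed factor, the genotype difference came from batches 1 and 2, the ones that hold both genotypes, and batch 3 added to the estimate of the spread. A probe set passed the test when its adjusted p was below 0.05 (limma, two-sided, Benjamini-Hochberg over all 33777 probe sets tested).

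Some facts of the whole series bear on every value below. Utx itself, as Kdm6a, had 4 probe sets with differences between -0.46 and 0.52 (knockout minus wildtype, log2), none of which passed the test (adjusted p 0.133 to 0.976). Since the deleted part is not given, these probe sets do not check the labels. The labels describe the animals as matched for sex, whereas Xist, the RNA of the inactive X chromosome, was at 7.84 to 10.07 in Utx knockout arrays and at 4.80 to 6.79 in Utx wildtype arrays on its probe set of highest mean. The difference was 5.27 in batch 1 and 1.54 in batch 2. Eif2s3y, a gene of the Y chromosome, stood at 7.07 in KO1 and at 13.58 in WT1. In batch 2 it was at 9.73 to 9.84 in the knockout arrays and at 10.32 in WT2. Its other probe set differed by -1.42 in batch 2. Kdm5d and Uty are also genes of the Y chromosome. In batch 2 the Kdm5d probe sets differed by -1.19, -0.88 and 0.22, and those of Uty by -1.20, -1.07, -0.94 and 0.43. The pair of arrays in batch 1 goes against its labels, and counts of calls are also given without it. Leaving it out does not remove the batch 2 differences in these genes, whose size varied with the probe set. The part that the sex of the animals has in any result was not tested. Of all 33777 probe sets tested, 8.52% passed, 1804 higher and 1074 lower in Utx knockout cells.

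Of the 24 probe sets, 9 passed the test (37.5%, against 8.52% of all probe sets tested), and all 9 were higher in Utx knockout cells (5.34% of all probe sets were called higher and 3.18% lower). They belong to Dnmt1, Uhrf1, Hells, Dnmt3a and Tet1. Uhrf2, Dnmt3b, Tet2 and Tet3 had no probe set past the test. By the probe set of highest mean of each gene, 4 of the 9 genes passed, Uhrf1, Hells, Dnmt3a and Tet1, all higher, against 9.50% of 14520 genes (6.71% higher and 2.80% lower). The median difference over the 24 probe sets was 0.84 (log2), beside 0.06 over all probe sets tested. All 24 probe sets lay above the filter on low values, a mean of 4.54 over the 9 arrays. The arrays of the groups did not overlap for 14 probe sets that were higher and 1 that was lower in Utx knockout cells, whereas 33.0% of all probe sets did not overlap (18.7% higher and 14.2% lower). Here and below, overlap takes no account of batch, and WT3, WT4 and WT5 come from batch 3, which holds no knockout array. Without WT2, the one wildtype array of batch 2, 4 of the 24 passed, all higher, beside 4.14% of all probe sets. Of these, 2 were among the 9, Uhrf1 1415810_at and Dnmt3a 1423066_at. Without both arrays of batch 1, 8 passed, beside 11.8% of all probe sets. Of these, 6 were higher and among the 9, and 2 were lower, Hells 1453361_at and Tet2 1438781_at. In bulk RNA of this kind, a change in the number of cells of a type and a change in the RNA per cell cannot be told apart.

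**Figure D1:**
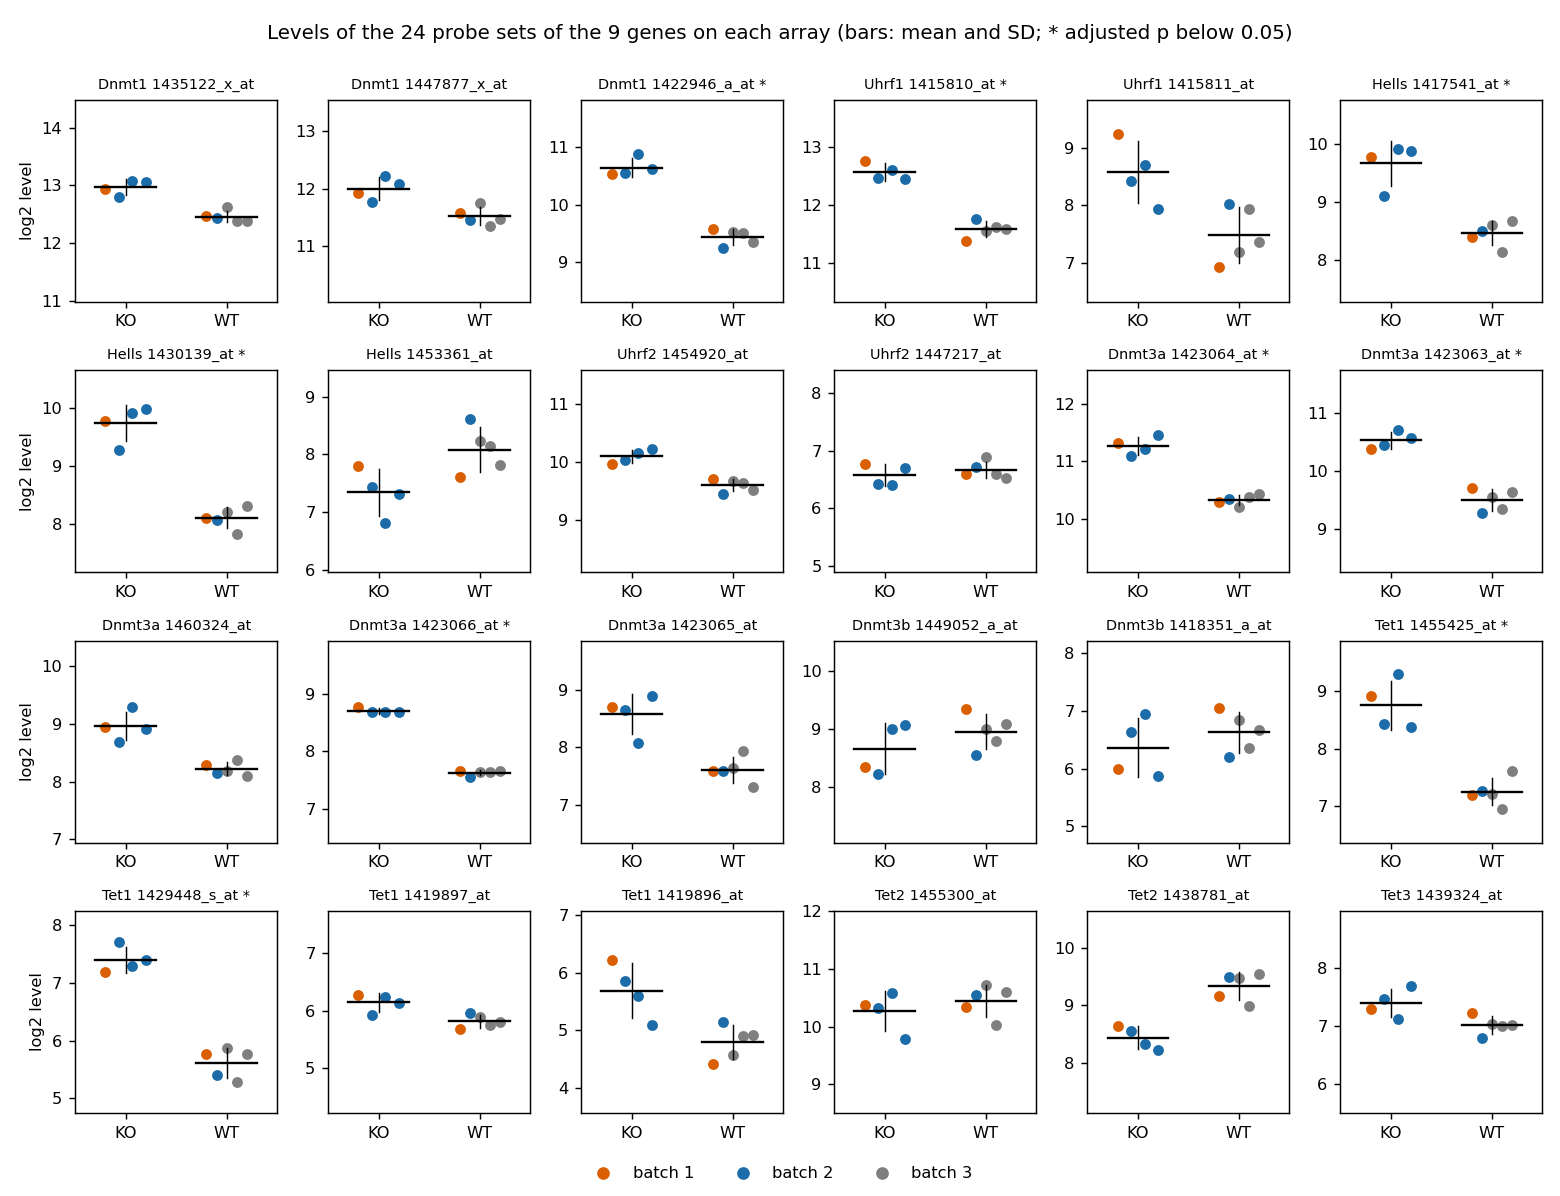
Log2 level (vertical axis) of each of the 24 probe sets on every array, Utx knockout left (4 arrays) and Utx wildtype right (5 arrays), with bars for mean and SD. The 9 probe sets marked with a star, adjusted p below 0.05, have all knockout arrays above all wildtype arrays.

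Dnmt1, the maintenance methyltransferase, has 3 probe sets, and on each of them every knockout array was above every wildtype array. The probe set 1422946_a_at measured 10.53, 10.54, 10.88 and 10.62 in KO1 to KO4, against 9.57, 9.25, 9.53, 9.51 and 9.35 in WT1 to WT5. The highest wildtype array was WT1, still well short of the lowest knockout array. The means were 10.64 ± 0.17 in Utx knockout cells and 9.44 ± 0.14 in Utx wildtype cells (SD, n = 4 and 5), and Dnmt1 rose by 1.24 ± 0.19 (SE, log2; 2.36-fold; adjusted p = 0.00958). Within batches the difference was 0.95 in batch 1 and 1.43 in batch 2. Without WT2 it did not pass (0.95, adjusted p = 0.119).

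The other 2 Dnmt1 probe sets, whose suffix marks probes that may also match other transcripts, showed smaller differences that did not pass. On 1435122_x_at Dnmt1 was at 12.94, 12.80, 13.08 and 13.06 in KO1 to KO4 and at 12.46, 12.44, 12.62, 12.39 and 12.39 in WT1 to WT5. Its difference was 0.51 ± 0.17 (SE, log2; adjusted p = 0.0950). On 1447877_x_at the difference was 0.47 ± 0.20 (adjusted p = 0.161), with 12.00 ± 0.20 in Utx knockout cells and 11.52 ± 0.15 in Utx wildtype cells. The sign of both is not settled: after median and interquartile range scaling of the arrays they were -0.17 and -0.10. The size of the Dnmt1 difference thus depends on the probe set, and the level of one probe set cannot be set against that of another.

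Uhrf1, the reader of hemimethylated DNA that recruits Dnmt1, has 2 probe sets designed from the same sequence record. On 1415810_at it was at 12.77, 12.46, 12.61 and 12.45 in KO1 to KO4, against 11.38, 11.77, 11.55, 11.62 and 11.59 in WT1 to WT5. The groups did not overlap, KO1 being the highest array of all and WT1 the lowest. The means were 12.57 ± 0.15 in Utx knockout cells and 11.58 ± 0.14 in Utx wildtype cells (SD, n = 4 and 5), and Uhrf1 rose by 1.0 ± 0.19 (SE, log2; 2.0-fold; adjusted p = 0.0180). The difference was 1.39 in batch 1 and 0.74 in batch 2, and the batch 2 value alone, from the fit without batch 1, did not pass (adjusted p = 0.0553). After median and interquartile range scaling it was 0.38 and did not pass either (adjusted p = 0.420).

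On 1415811_at, Uhrf1 stood at 9.23, 8.41, 8.70 and 7.94 in KO1 to KO4 and at 6.92, 8.03, 7.19, 7.94 and 7.36 in WT1 to WT5. KO4 lay among the wildtype arrays, so the groups overlapped. The difference of 1.12 ± 0.43 (SE, log2) did not pass (adjusted p = 0.126). It was 2.31 in batch 1 and 0.33 in batch 2, and without WT2, where batch 1 alone gives the estimate, it passed (adjusted p = 0.0309). limma's test of the difference between the batches did not pass (1.98, adjusted p = 0.286).

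Hells, the remodeller, has 3 probe sets, of which 2 passed the test. On 1430139_at it was at 9.78, 9.29, 9.92 and 9.997 in KO1 to KO4, against 8.10, 8.07, 8.21, 7.83 and 8.30 in WT1 to WT5. KO2 was the lowest knockout array and still above all wildtype arrays. Hells averaged 9.75 ± 0.32 in Utx knockout cells and 8.10 ± 0.18 in Utx wildtype cells (SD, n = 4 and 5) and rose by 1.67 ± 0.25 (SE, log2; 3.18-fold; adjusted p = 0.00855). The batch values were alike, 1.68 in batch 1 and 1.66 in batch 2. Without WT2, where KO1 and WT1 of batch 1 alone give the estimate (1.68), it did not pass (adjusted p = 0.0597).

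On 1417541_at, Hells was at 9.79, 9.10, 9.91 and 9.88 in KO1 to KO4 and at 8.39, 8.51, 8.60, 8.13 and 8.67 in WT1 to WT5, again with no overlap. It rose by 1.23 ± 0.28 (SE, log2; 2.35-fold; adjusted p = 0.0326). That call was lost on leaving out any one of WT1, WT2, WT3, WT5, KO1, KO3 and KO4 (differences 1.13 to 1.39, adjusted p 0.0523 to 0.149). The third probe set, 1453361_at, went the other way. It was at 7.81, 7.44, 6.81 and 7.32 in KO1 to KO4 and at 7.60, 8.61, 8.23, 8.15 and 7.81 in WT1 to WT5, with an overlap made by KO1 and WT1. Its difference was -0.77 ± 0.35 (SE, log2; adjusted p = 0.182), being 0.20 in batch 1 and -1.42 in batch 2, and without batch 1 it passed (adjusted p = 0.0279). Which Hells transcript this probe set reports is not given in the files.

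Promoter sequences of these 3 genes are shown because Dnmt1, Uhrf1 and Hells each hold a match to a binding motif of the E2F factors, the regulators of genes used in S phase. The sequences are RefSeq windows of GRCm38.p6, 250 bases before to 50 after a gene's start, and all 9 genes had at least 1 window, 14 in all. The motifs searched on both strands were TTTCCCGC, TTTGGCGC, TTTCGCGC and TTTGCCGC. Capitals mark the match in each sequence. The windows of Uhrf1 (chr17:56304063-56304362, plus strand) and Hells (chr19:38930740-38931039, plus strand) are given whole, followed by the 2 stretches of 30 bases of Dnmt1 that hold its matches (chr9:20952824-20952853 and chr9:20952574-20952603, minus strand).
Uhrf1: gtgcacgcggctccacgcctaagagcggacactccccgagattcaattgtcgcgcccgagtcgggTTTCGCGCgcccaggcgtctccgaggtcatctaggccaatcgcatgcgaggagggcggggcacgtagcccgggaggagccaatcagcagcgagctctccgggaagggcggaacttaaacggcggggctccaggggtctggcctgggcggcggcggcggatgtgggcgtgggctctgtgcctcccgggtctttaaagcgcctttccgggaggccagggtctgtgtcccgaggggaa
Hells: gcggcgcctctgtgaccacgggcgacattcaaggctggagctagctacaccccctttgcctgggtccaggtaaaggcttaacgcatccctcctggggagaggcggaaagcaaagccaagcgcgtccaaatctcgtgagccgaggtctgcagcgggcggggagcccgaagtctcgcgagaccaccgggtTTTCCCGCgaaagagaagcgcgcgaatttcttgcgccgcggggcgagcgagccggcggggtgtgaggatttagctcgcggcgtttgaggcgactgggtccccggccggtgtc
Dnmt1, upstream match: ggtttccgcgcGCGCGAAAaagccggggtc
Dnmt1, downstream match: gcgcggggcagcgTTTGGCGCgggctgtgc

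The match lay 185 bases before the start in Uhrf1 and 62 bases before it in Hells. In Dnmt1 the matches lay 219 bases before the start, on the opposite strand, and 33 bases after it. The windows of Uhrf2, Dnmt3a, Dnmt3b, Tet1, Tet2 and Tet3 held none of the 4 motifs. Among all windows of the same length 744 of 32851 (2.26%) held at least 1, as did 194 of the 3837 windows (5.06%) with 30 or more CpG. Among genes, 704 of 27025 (2.60%) held one, and among the S phase genes listed further on, 8 of 20 with a window. Windows of Dnmt1, Uhrf1 and Hells with a match held 33, 33 and 34 CpG, against a median of 7 in all windows. A match describes the letters of the window and no binding was measured.

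Uhrf2, the paralogue of Uhrf1 that does not take its place in maintenance, had 1 probe set whose groups did not overlap. On 1454920_at it measured 9.97, 10.03, 10.15 and 10.23 in KO1 to KO4, against 9.71, 9.45, 9.67, 9.64 and 9.52 in WT1 to WT5. The difference of 0.52 ± 0.17 (SE, log2) did not pass (adjusted p = 0.0944, 95% interval 0.12 to 0.91). The other, 1447217_at, had a difference of -0.05 ± 0.20 (adjusted p = 0.891, interval -0.49 to 0.39), with overlapping groups.

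**Figure D2:**
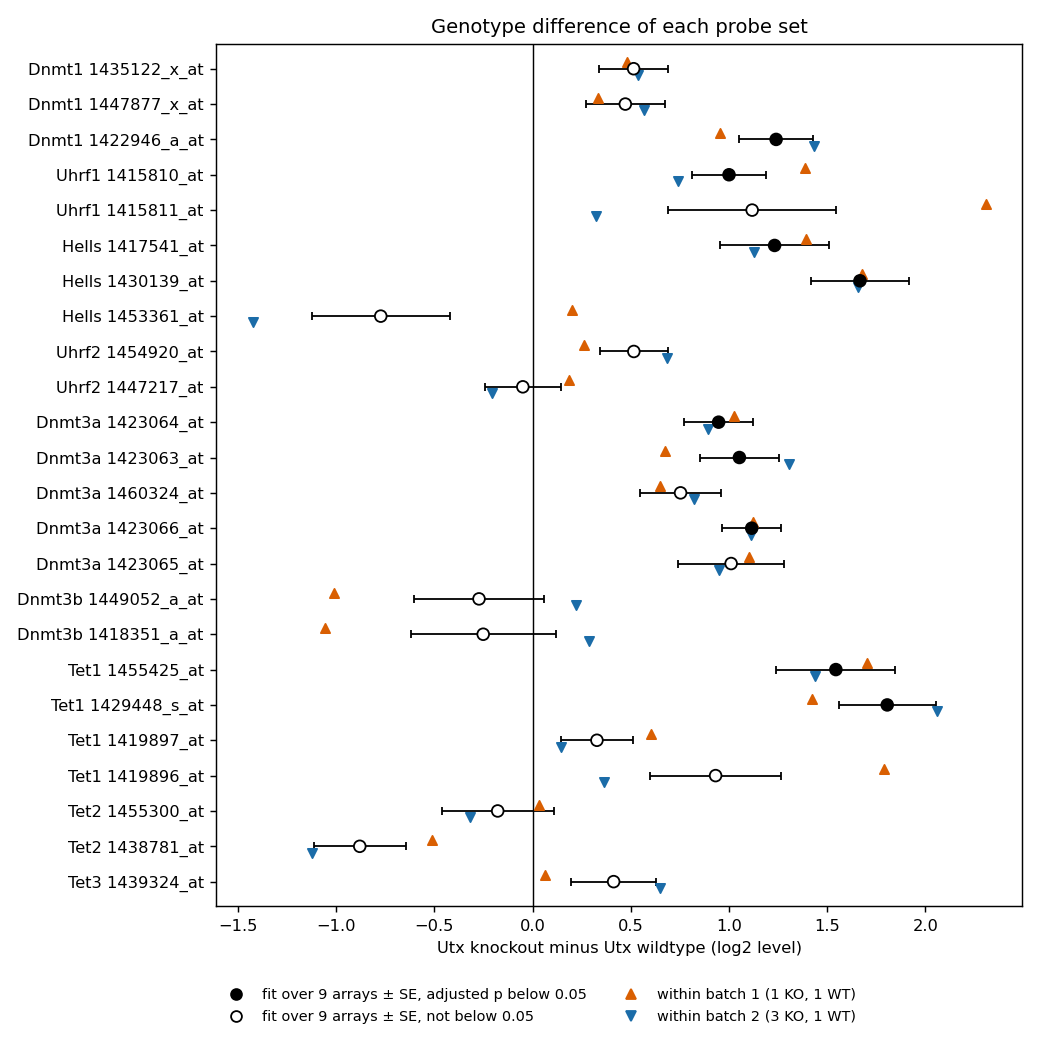
Utx knockout minus Utx wildtype difference (horizontal axis, log2) of each of the 24 probe sets with its SE, filled where the adjusted p was below 0.05, with the differences within batches 1 and 2. The filled points, from 0.95 to 1.81, are all on the positive side.

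Dnmt3a, which methylates DNA that carries no mark and is needed to close genes as T cells specialise, has 5 probe sets, all designed from the same sequence record. Every knockout array was above every wildtype array on all 5, and 3 of them passed the test. On 1423064_at, the probe set of highest mean, Dnmt3a was at 11.32, 11.10, 11.21 and 11.45 in KO1 to KO4, against 10.30, 10.36, 10.21, 10.37 and 10.43 in WT1 to WT5. Neither group spread by as much as the gap between them. The means were 11.27 ± 0.15 in Utx knockout cells and 10.33 ± 0.08 in Utx wildtype cells (SD, n = 4 and 5), and the rise was 0.95 ± 0.18 (SE, log2; 1.93-fold; adjusted p = 0.0175). It was 1.03 in batch 1 and 0.90 in batch 2. Without WT2 (adjusted p = 0.0988) it did not pass, nor after median and interquartile range scaling (0.47, adjusted p = 0.163).

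On 1423066_at, Dnmt3a had the smallest adjusted p of all 24 probe sets. The values were 8.77, 8.68, 8.68 and 8.68 in KO1 to KO4, against 7.65, 7.56, 7.65, 7.65 and 7.65 in WT1 to WT5. The arrays within a group were nearly equal, and the rise was 1.12 ± 0.15 (SE, log2; 2.17-fold; adjusted p = 0.0064). It was 1.12 in batch 1 and 1.11 in batch 2 and passed on leaving out any 1 of the 9 arrays. On 1423063_at Dnmt3a was at 10.37, 10.45, 10.72 and 10.58 in KO1 to KO4 and at 9.70, 9.27, 9.55, 9.34 and 9.64 in WT1 to WT5. That rise was 1.05 ± 0.20 (2.08-fold; adjusted p = 0.0190), and without WT2 the difference was 0.67 and did not pass (adjusted p = 0.302).

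The other 2 Dnmt3a probe sets came close to the threshold. The difference was 0.75 ± 0.21 (SE, log2; adjusted p = 0.0566) on 1460324_at and 1.01 ± 0.27 (adjusted p = 0.0519) on 1423065_at. Each passed when 1 knockout array was left out, 1460324_at without KO2 (0.83, adjusted p = 0.0419) and 1423065_at without KO3 (1.15, adjusted p = 0.0405). These were the lowest adjusted p on leaving out single arrays. The highest were 0.443 for 1460324_at and 0.259 for 1423065_at, and the differences were at least 0.65 and 0.91. The 5 probe sets share their source sequence, so they are repeated readings of 1 gene.

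Dnmt3b, the second enzyme of this kind, showed no such pattern. On 1449052_a_at it was at 8.33, 8.22, 9.01 and 9.07 in KO1 to KO4, against 9.34, 8.55, 9.01, 8.79 and 9.09 in WT1 to WT5, and the groups overlapped. The difference was -0.27 ± 0.33 (SE, log2; adjusted p = 0.615), with a 95% interval from -1.02 to 0.47. The difference on 1418351_a_at was -0.25 ± 0.37 (adjusted p = 0.684, interval -1.09 to 0.59). The signs of both were opposite between batches, -1.01 and -1.06 in batch 1 and 0.22 and 0.29 in batch 2. These intervals leave room for a change in either direction.

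Among the TET enzymes, Tet1 and Tet2 had differences of opposite sign. Tet1 has 4 probe sets, of which 2 passed the test and were higher in Utx knockout cells. On 1455425_at, the probe set of highest mean, it was at 8.91, 8.43, 9.29 and 8.38 in KO1 to KO4, against 7.20, 7.26, 7.22, 6.96 and 7.61 in WT1 to WT5. The knockout arrays varied more among themselves, and all of them were above WT5, the highest wildtype array. Tet1 averaged 8.75 ± 0.43 in Utx knockout cells and 7.25 ± 0.23 in Utx wildtype cells (SD, n = 4 and 5), a rise of 1.54 ± 0.30 (SE, log2; 2.92-fold; adjusted p = 0.0202). It was 1.70 in batch 1 and 1.44 in batch 2. The call was lost without batch 1 (1.44, adjusted p = 0.0515) and without WT2 (1.70, adjusted p = 0.103).

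On 1429448_s_at, Tet1 showed the widest difference of the 24 probe sets. It stood at 7.20, 7.72, 7.29 and 7.40 in KO1 to KO4 and at 5.77, 5.41, 5.87, 5.28 and 5.77 in WT1 to WT5. The rise was 1.81 ± 0.25 (SE, log2; 3.50-fold; adjusted p = 0.00663), larger than that of 98.8% of the probe sets tested. It was 1.42 in batch 1 and 2.06 in batch 2. Without batch 1 it passed (adjusted p = 0.0155), and without WT2 it did not (adjusted p = 0.0726). The wildtype values lay below the median level of every array (5.97 to 6.09), and the suffix of the name marks probes shared with other transcripts.

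The other 2 Tet1 probe sets did not pass. The difference was 0.33 ± 0.18 (SE, log2; adjusted p = 0.266) on 1419897_at and 0.93 ± 0.33 (adjusted p = 0.109) on 1419896_at. The second was at 6.21, 5.85, 5.60 and 5.09 in KO1 to KO4 and at 4.42, 5.15, 4.58, 4.90 and 4.93 in WT1 to WT5, with KO4 below WT2. It differed by 1.79 in batch 1 and 0.36 in batch 2, and without WT2 it passed (adjusted p = 0.0429).

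Tet2 has 2 probe sets that read differently. On 1438781_at it was at 8.65, 8.57, 8.33 and 8.23 in KO1 to KO4, against 9.16, 9.50, 9.47, 8.99 and 9.55 in WT1 to WT5. All knockout arrays were below all wildtype arrays, the only such case among the 24 probe sets. The means were 8.44 ± 0.20 in Utx knockout cells and 9.33 ± 0.24 in Utx wildtype cells (SD, n = 4 and 5). The difference of -0.88 ± 0.23 (SE, log2; 0.544 of the wildtype level) missed the threshold by little (adjusted p = 0.0515, 95% interval -1.41 to -0.35). It was -0.51 in batch 1 and -1.12 in batch 2, and without batch 1 it passed (adjusted p = 0.0404). It also passed after a further quantile normalization (-1.12, adjusted p = 0.0430) and after median and interquartile range scaling (-1.17, adjusted p = 0.0250). Over the fits that leave out single arrays the difference ran from -1.12 to -0.51, with adjusted p from 0.0404 to 0.616.

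The other Tet2 probe set, 1455300_at, stood at 10.38, 10.32, 10.59 and 9.78 in KO1 to KO4 and at 10.35, 10.55, 10.73, 10.03 and 10.60 in WT1 to WT5, with overlapping groups. Its difference was -0.18 ± 0.29 (SE, log2; adjusted p = 0.713, interval -0.82 to 0.47). Tet3, the family member that joins Tet2 in the control of iNKT cell numbers, has 1 probe set, 1439324_at. Tet3 measured 7.29, 7.47, 7.13 and 7.70 in KO1 to KO4, against 7.23, 6.78, 7.04, 7.01 and 7.02 in WT1 to WT5. KO3 lay below WT1, and the difference of 0.41 ± 0.22 (adjusted p = 0.237, interval -0.08 to 0.90) did not pass.

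The differences in batches 1 and 2 had the same sign for 19 of the 24 probe sets and for all 9 that passed. A limma term for unequal genotype differences in these batches called 0 of the 24 (lowest adjusted p 0.286) and 7 of all probe sets, and 3 of the 24 (12.5%) had an unadjusted p below 0.05 for it, beside 12.6% of all probe sets. Taken as the median over the 9 of the level minus the wildtype mean, the arrays stood at 1.19, 1.04, 1.44 and 1.13 in KO1 to KO4, against -0.001, -0.03, 0.05, -0.16 and 0.14 in WT1 to WT5. These 9 were chosen by the same test, so the separation is a description of them.

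**Figure D3:**
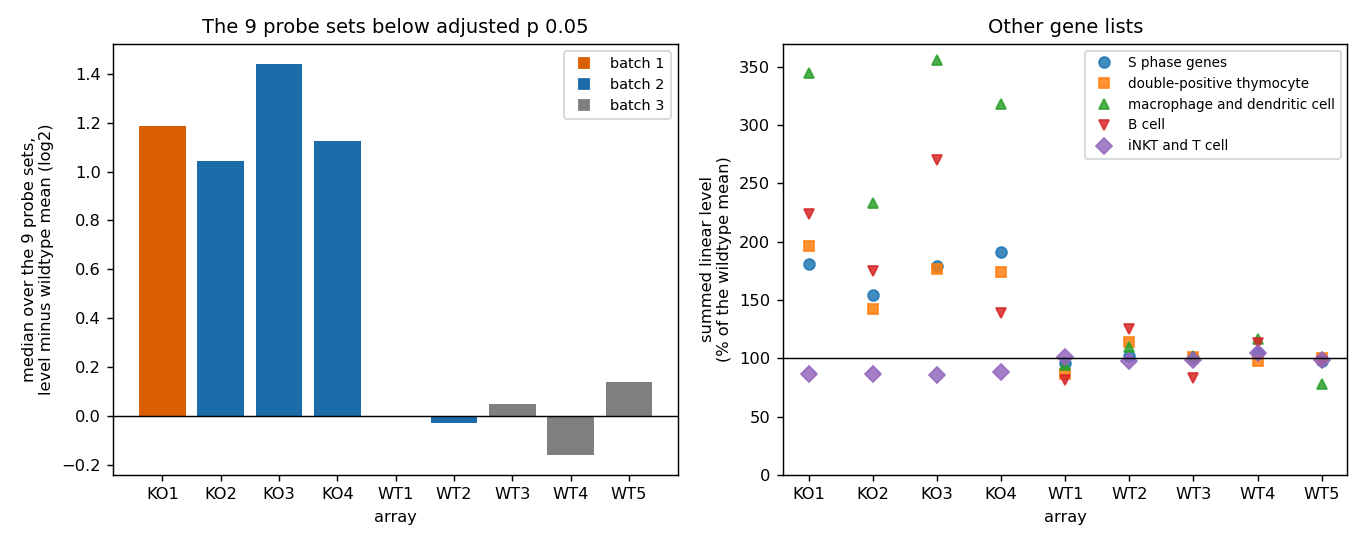
Left, the median over the 9 probe sets that passed of the level minus the wildtype mean (log2) on each array, Utx knockout first. Right, the summed linear level of other gene lists on each array as a percentage of the wildtype mean. The knockout arrays lie at 1.04 to 1.44 on the left, and S phase genes at 154% to 191% on the right.

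The other genes of the pathway were taken in 4 lists. Of 40 tested (45 listed), 5 passed, all higher in Utx knockout cells (12.5%, against 9.50% of all genes), and the median difference was 0.41 (log2), beside 0.11 over all genes tested. That median was 0.25 without WT2 (all genes -0.01) and 0.51 without batch 1 (all genes 0.19). After median and interquartile range scaling it was 0.03, and 5 passed as higher and 2 as lower. After a further quantile normalization it was 0.27, and 4 passed, all higher. By adjusted p, the share called was near that of all genes. At an unadjusted p below 0.05 (limma) there were 22 of the 40, a larger share than the 4323 of 14520 genes (29.8%). Without KO3, 2 of the 40 passed, without WT2 3, without KO2 9, and without batch 1 7, of which 1 was lower.

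Among methyl-CpG readers, proteins that bind methylated DNA, 1 of 7 tested passed. This was Mbd4, which is also a repair glycosylase, at 8.51 ± 0.46 in Utx knockout cells and 7.10 ± 0.23 in Utx wildtype cells (SD, n = 4 and 5), a rise of 1.43 ± 0.31 (SE, log2; adjusted p = 0.0300). Among homologues and partners of the methyltransferases 2 of 11 passed. Lig1, the ligase that joins Okazaki fragments and is itself bound by Uhrf1, rose by 1.42 ± 0.20 (adjusted p = 0.0072), and Cdca7, the partner of Hells, rose by 1.24 ± 0.25 (adjusted p = 0.0219). Lig1 was at 10.52 ± 0.20 in Utx knockout cells and 9.12 ± 0.14 in Utx wildtype cells. Pcna, the replication clamp, had a difference of 0.43 ± 0.16 that did not pass (adjusted p = 0.124), and Trim28 one of 0.74 ± 0.19 (adjusted p = 0.0512).

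Among TET partners and the repair enzymes that replace oxidised methylcytosine, 2 of 16 tested passed. Neil3, a glycosylase found in dividing cells, rose by 1.68 ± 0.27 (SE, log2; 3.21-fold; adjusted p = 0.0105), and Polb, the repair polymerase, rose by 1.13 ± 0.24 (2.18-fold; adjusted p = 0.0287). Neil3 averaged 10.15 ± 0.24 in Utx knockout cells and 8.48 ± 0.30 in Utx wildtype cells (SD, n = 4 and 5). Of the enzymes that supply the methyl donor, 0 of 6 tested passed (limma; 2 had an unadjusted p below 0.05), and their median difference was 0.17. Without WT2 the difference was 1.03 for Mbd4 (adjusted p = 0.362) and 0.57 for Polb (adjusted p = 0.482). The call for Mbd4 was also lost without WT5, KO3 or KO4 (adjusted p 0.0521 to 0.0629), and that for Polb without WT4 or KO3 (1.13 in both). Cdca7 lost its call without batch 1 (0.91, adjusted p = 0.0673), without KO3 (1.22) and under either other scaling (0.96 and 0.91). Lig1 and Neil3 passed on leaving out any single array.

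**Figure D4:**
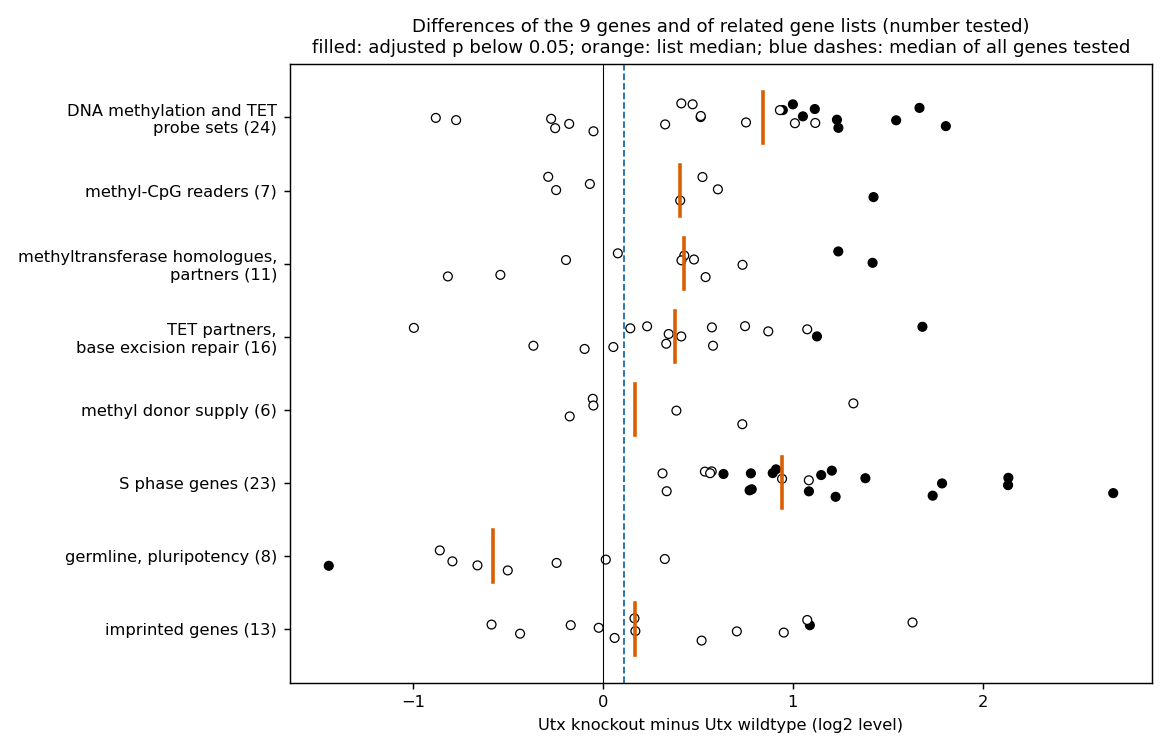
Difference between Utx knockout and Utx wildtype cells (horizontal axis, log2) of the 24 member probe sets (first row, 1 point a probe set) and of each gene of the related lists (1 point a gene), with the list median in orange and the median of all genes tested, 0.11, as dashes. Filled points had an adjusted p below 0.05: 16 of 23 S phase genes, 5 of 40 pathway genes and 1 gene each of the germline and imprinted lists.

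Genes used in S phase, when DNA and its methylation are copied, made up another list. Of 23 tested, 16 passed, all higher in Utx knockout cells (69.6%, against 9.50% of all genes), and the median difference was 0.94. All 23 differences were positive. Gins1, part of the replicative helicase, rose by 2.13 ± 0.24 (SE, log2; 4.39-fold; adjusted p = 0.0048), and Cdc6, which loads the helicase, rose by 2.69 ± 0.32 (6.44-fold; adjusted p = 0.0052). Chaf1b, of the complex that places histones on new DNA, rose by 1.38 ± 0.18 (adjusted p = 0.0060), and Prim1, the primase, rose by 1.23 ± 0.17 (adjusted p = 0.0070). Without WT2, 4 of the 23 passed, Gins1 and Cdc6 among them but not Chaf1b (adjusted p = 0.0535) or Prim1 (adjusted p = 0.0510), and without batch 1, 10 passed. After median and interquartile range scaling 7 passed, and Prim1 was not among them (0.69, adjusted p = 0.0614). How far the differences of the members go with the number of cells in S phase was not tested.

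Markers of other cells that a thymus sort can hold moved with the genotype too. Of 14 markers of double-positive thymocytes, the stage before the iNKT cell, 7 passed, all higher in Utx knockout cells, and the median difference was 0.87. Without WT2 the median was 1.42 and 8 passed, and without batch 1 it was 0.62 and 4 passed. After median and interquartile range scaling it was 0.30 and 3 passed. Their summed linear level was 142% to 196% of the wildtype mean in Utx knockout arrays, against 86.8% to 114% in Utx wildtype arrays. Of 14 macrophage and dendritic cell markers tested, 7 passed, all higher, with a summed level of 233% to 356% in Utx knockout arrays, against 78.0% to 116% in Utx wildtype arrays, while Itgam and Cd14 lay below the filter. Without batch 1, 5 of the 14 passed, and after median and interquartile range scaling 7. Of 8 B cell markers 2 passed, both higher, as they did in number without batch 1, while the median difference was 0.62, against 0.37 without batch 1 and 1.45 without WT2. Of 7 iNKT and T cell markers 57.1% passed (against 9.50% of all genes), Thy1 as higher and Tbx21, Il2rb and Cd44 as lower. The summed level of the 7 was 85.6% to 88.5% in Utx knockout arrays, against 97.6% to 105% in Utx wildtype arrays. Without batch 1, 1 of the 7 passed, as lower, and 1 passed as lower on leaving out WT3, WT5, KO3 or KO4. With array weights 0 passed. Without WT2 0 passed as well, while the median difference was -0.72, against -0.22 over all 9 arrays. The part of these cells in the differences of the members was not tested.

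The genes nearest in pattern to each member over the 9 arrays were found by the root mean square difference between log2 profiles centred on their own mean. Nearest to Dnmt1 (1422946_a_at) were Extl2 at 0.094, Blm at 0.104 and Cenpu at 0.106. Nearest to Uhrf1 (1415810_at) were Mad2l1 at 0.070, Sox12 at 0.094 and Pclaf at 0.099. The genes next to Hells (1417541_at) were Lin9 at 0.111, Ift74 at 0.116 and Jade3 at 0.118. For Dnmt3a (1423064_at) they were Lrfn1 at 0.057, Trak1 at 0.076 and Cfap36 at 0.081. For Tet1 (1455425_at), whose knockout arrays varied more, they were farther off, Ect2 at 0.195, Hspa2 at 0.208 and Cep170 at 0.220. All 15 passed the test as higher in Utx knockout cells, which the choice by likeness to a called member largely fixes.

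**Figure D5:**
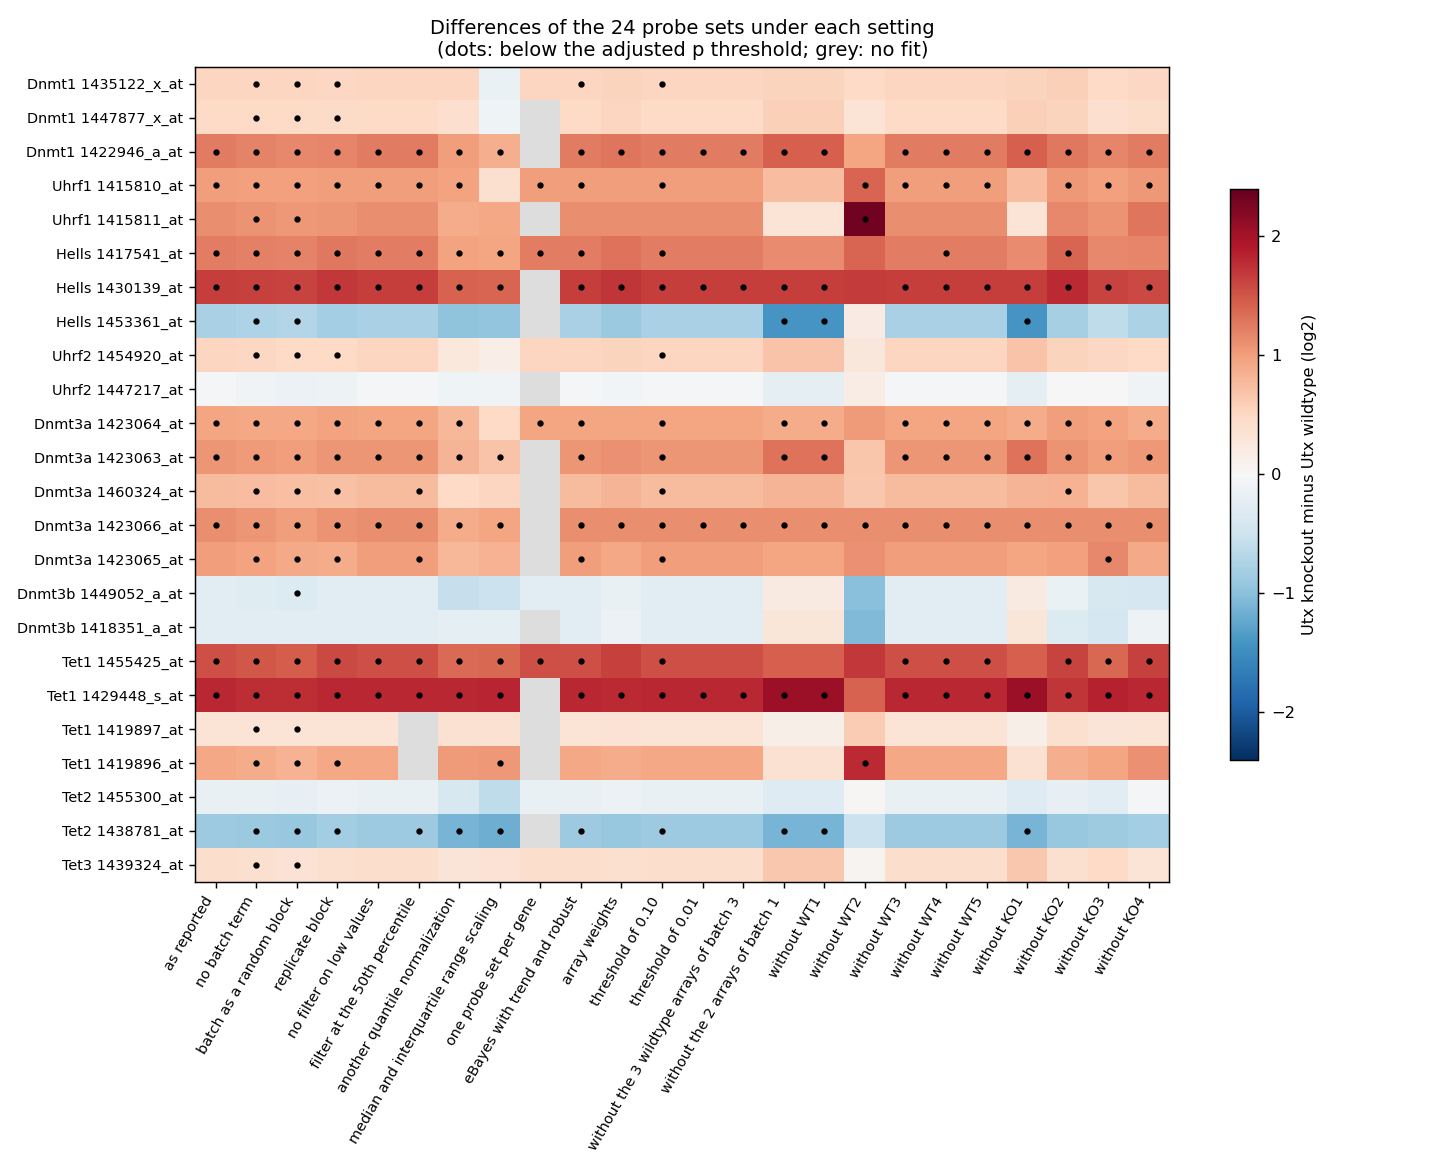
Utx knockout minus Utx wildtype difference (colour, log2) of the 24 probe sets, down the page, under each way of fitting the data, across it, with a dot where the adjusted p was below the threshold. Between 4 and 21 probe sets pass, depending on the setting, and Dnmt3a 1423066_at keeps its dot on leaving out any 1 array.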

How the data were processed

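Log2 levels were deposited for each probe set on each array. Per the submitters' processing notes they come from RMA, a method that corrects background, equalises the distributions and summarises probes, with no version named. Interquartile ranges ran from 3.79 to 4.29 (log2) in Utx knockout arrays and from 3.44 to 3.84 in Utx wildtype arrays, which quantile normalization alone would leave nearly equal; any later step is unstated in the sources used here. Arrays give no read depth; their number limits the precision. Amplification and RMA can compress differences. The array files name no genome build, and the promoter sequences are RefSeq's.

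The platform annotation gave 1 gene for 34945 probe sets, several for 932 and none for 9160, and 64 were controls. RefSeq held the Entrez identifier of 34741 of the one-gene probe sets and changed 0 symbols. Probe sets with a mean above the 25th percentile (4.54) were tested. limma 3.58.1 (R 4.3.3) was fitted to all 9 arrays with genotype and batch (3 levels) as fixed factors, eBayes with 5 residual and 3.83 prior degrees of freedom, and two-sided tests adjusted by Benjamini-Hochberg at 0.05. Every adjusted p is from limma. The fit was checked on simulated data. Summaries used Python 3.11.15, pandas 2.3.3 and numpy 2.4.6. Lists used the probe set of highest mean of each gene.

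The members and lists were chosen with earlier results of these data known. Named were all probe sets of the members, Kdm6a, the sex genes, up to 4 called genes of smallest p for each list, and the 3 genes nearest in pattern to each called member. Near misses (Pcna, Trim28), marker genes that passed and markers below the filter were named after their values were seen. Groups, batches and replicate numbers came from the titles. Same-numbered knockout and wildtype arrays deviated from their group means with correlations of -0.91, 0.08, -0.01 and 0.13 for numbers 1 to 4. None was strongly positive, so the numbers were not taken to pair the samples. The value of -0.91 is that of KO1 and WT1, the only arrays of batch 1, whose deviations were nearly opposite. Its cause was not tested, and the SDs given describe the values as deposited. Alternatives were the batch term, a replicate block, the filter, the scaling, 1 probe set per gene, array weights, eBayes settings, the threshold, and fits without batches or single arrays.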

Additional observations from a re-analysis of the deposited data

Results flagged for a closer look

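Of 48 sets of arrays (24 probe sets in each genotype), 3 had 1 array far from the others by Dixon's criterion, which chance meets in about 1 of 20 sets. Hells on 1417541_at was low in KO2, at 9.10 against 9.79 to 9.91 in the other Utx knockout arrays, a gap of 0.845 of the range of the group. Dnmt3a on 1423066_at was high in KO1, at 8.77 against 8.68 in each of the other Utx knockout arrays, and low in WT2, at 7.56 against 7.65 in each of the other Utx wildtype arrays. Those gaps were 0.994 and 0.935 of the range, in groups whose whole range was small.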

How the results depend on the processing

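Of the 24 member probe sets 9 passed as reported, 20 with no batch term, 21 with batch as a random block and 16 with the replicate number as a block. With 1 probe set per gene 9 were fitted and 4 passed. At a threshold of 0.10 the count was 14, and it was 4 at 0.01, 4 with array weights and 4 without the wildtype arrays of batch 3. On leaving out single arrays 4 (without WT2) to 10 (without KO2) passed. Over all 33777 probe sets tested the count was 2878 as reported, 13845 with no batch term, 22723 with the random block and 9076 with the replicate block. With 1 probe set per gene 14520 were fitted and 1634 passed. The count was 742 with array weights, 6083 at 0.10, 445 at 0.01 and 655 without the wildtype arrays of batch 3. On leaving out single arrays it was 1384 (without KO3) to 3971 (without WT1 or KO1). Among these were 1398 without WT2, 1559 without KO4, 1698 without WT5, 1758 without WT3 and 1899 without WT4. Of the S phase genes 16 passed as reported, 7 after interquartile range scaling, 7 with array weights, 4 at 0.01, 6 without the wildtype arrays of batch 3, 10 without batch 1, WT1, KO1 or KO3, and 4 (without WT2) to 16 (without KO2) without single arrays. Of the pathway genes 5 passed as reported, 23 with no batch term, 31 with the random block, 16 with the replicate block, 11 with trend and robust eBayes, 2 with array weights, 14 at 0.10, 1 at 0.01, 2 without the wildtype arrays of batch 3, and 2 (without KO3) to 9 (without KO2) without single arrays. Of the germline genes 1 passed as reported, 5 with no batch term, the random block or the replicate block, 2 with no filter, 0 with the 50th percentile filter, array weights, a threshold of 0.01 or no wildtype arrays of batch 3, 3 at 0.10 or without batch 1, and 0 (without WT2, KO3 or KO4) to 3 (without WT1 or KO1) without single arrays. Of the imprinted genes 1 passed as reported, 6 with no batch term, 9 with the random block, 5 with the replicate block, 2 after interquartile range scaling or without batch 1, 3 at 0.10, 0 under the same settings as the germline genes, and 0 (without WT2 or KO3) to 2 (without WT1, KO1 or KO2) without single arrays. The 50th percentile filter, a mean of 6.04, left 1 germline and 8 imprinted genes to test. Dazl and Cdkn1c, the germline and imprinted calls reported, lay below it and were not fitted. The cause of the other shifts was not tested, apart from thresholds and arrays left out.

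Scaling moved the split of all calls: 1804 were higher and 1074 lower as reported, 1664 and 1492 after a further quantile normalization, and 1858 and 2123 after median and interquartile range scaling. The median difference of all probe sets was 0.06, -0.01 and -0.06 in that order, and the member median relative to it was 0.79, 0.66 and 0.49. Signs reversed for Dnmt1 1435122_x_at (-0.17) and 1447877_x_at (-0.10) after interquartile range scaling, and, between fits that leave out single arrays, for 5 more. These ranged from -1.42 to 0.20 for Hells 1453361_at, from -0.21 to 0.19 for Uhrf2 1447217_at and from -0.32 to 0.033 for Tet2 1455300_at, each positive without WT2, where batch 1 alone gives the estimate. They ranged from -1.01 to 0.22 for Dnmt3b 1449052_a_at and from -1.06 to 0.29 for Dnmt3b 1418351_a_at, each positive without batch 1 or either of its arrays, where batch 2 alone gives the estimate. Of all comparisons of a member probe set under an alternative, 433 kept direction and call, 54 gained and 37 lost the call, and 11 reversed. These are not separate checks. The fits without batch 1, without WT1 and without KO1 give the same result, and the thresholds of 0.10 and 0.01 reuse the reported fit.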

Other observations

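Among genes whose silence is known to rest on DNA methylation, each list below had 1 call, too few to compare with the rate of all genes. Of 18 germline genes with promoters known to be methylated in somatic cells and with a probe set, 10 lay below the filter on low values, and of the 8 tested 1 passed (12.5%, beside 9.50% of all genes). This was Dazl, an RNA-binding protein of germ cells, at 5.17 ± 0.23 in Utx knockout cells and 6.53 ± 0.40 in Utx wildtype cells (SD, n = 4 and 5; log2 difference -1.44, adjusted p = 0.0259). The call was lost without WT2 (-0.61), KO3 or KO4, and without batch 1 3 of the 8 passed. The median difference of the 8 was -0.58, and -0.33 without WT2. Of the 8, 6 were negative, beside 40.7% of all genes, and 5 had an unadjusted p below 0.05, beside 29.8% of all genes. The summed linear level of the 18 was 75.1% to 77.8% of the wildtype mean in Utx knockout arrays. It was 90.0% to 112% in Utx wildtype arrays, and the 18 include the 10 below the filter.

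Of 13 imprinted genes tested, 1 passed (7.69%, beside 9.50% of all genes), Cdkn1c, an inhibitor of the cell cycle kinases expressed from the maternal copy. It was at 5.77 ± 0.20 in Utx knockout cells and 4.70 ± 0.23 in Utx wildtype cells (log2 difference 1.09, adjusted p = 0.0256), and the call was lost without WT2 or KO3. The median difference of the 13 was 0.17, and 0.33 without WT2. DNA methylation itself was not measured on these arrays.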
